A study of Homo sapiens with 16 samples.

Results

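The 9 genes described here (MDM2, ZMAT3, FDXR, TP53INP1, SESN1, FAS, RRM2B, BTG2 and GDF15) are transcriptional targets of p53, chosen by their gene symbols among the 42351 genes of a count table of lung cancer cells treated with hepatocyte growth factor (HGF). All 9 had enough reads to be among the 15067 genes tested. Before HGF, each of them was lower in the cells expressing MET∆14 than in those expressing wt MET (39.6% of all genes tested). The response to HGF was called different between the 2 lines for 8 of the 9 (37.6% of all genes tested).

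RNA was sequenced from A549, a lung adenocarcinoma line labelled wt MET, and from NCI-H596, a lung adenosquamous carcinoma line whose MET transcript lacks exon 14 (MET∆14), so that each MET status is represented by 1 cell line. Serum had been withdrawn from every culture before HGF, for 12 h according to the labels and for 24 h according to the methods of the study. Cells without HGF (0 h) and cells after 3, 6 and 12 h of HGF gave 2 biological replicates per line and time, 16 libraries in all. No untreated culture was collected at a later time, so HGF and the hours elapsed since 0 h cannot be told apart, nor can MET status and any other difference between the lines.

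p53 is a sequence-specific transcription factor that accumulates after DNA damage and other stress, when its degradation by the ubiquitin ligase MDM2 is relieved. It binds response elements made of paired half-sites and raises the transcription of genes that arrest the cell cycle, repair DNA, adjust metabolism or trigger apoptosis, and MDM2 is itself one of its targets, which closes a negative feedback loop. A549 is widely used as a line with functional p53, whereas NCI-H596 is catalogued with a mutated p53 gene. The status of p53 was not measured in these files.

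The sequence that links these genes is the p53 response element, 2 half-sites of 10 bases each. It was searched in the RefSeq promoter windows (GRCh38.p14, 250 bases before to 50 bases after a transcript start) with no spacer, up to 3 mismatches over the 20 bases, and the central C and G of each half-site intact. Such a match, which reads alike on both strands, was present in 1.12% of all 35116 windows and in 1.37% of the 27305 genes. Windows were held for 7 of the 9 genes, and 5 of these 7 contained a match. The limit on mismatches was set with these matches known, so the count is a description.

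The MDM2 window is shown because it holds 1 of the closest matches together with an AP-1 motif, the element bound by FOS and JUN proteins. In the lines that follow, capitals mark the matches, and the MDM2 line has first AP-1 (TGANTCA, either strand) and then the p53 element.
MDM2, chr12:68808879-68808962 (+): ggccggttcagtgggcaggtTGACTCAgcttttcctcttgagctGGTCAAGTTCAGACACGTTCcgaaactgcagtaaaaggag
SESN1, chr6:109008998-109009057 (-): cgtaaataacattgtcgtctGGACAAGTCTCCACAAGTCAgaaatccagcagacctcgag
FAS, chr10:88991309-88991328 (+): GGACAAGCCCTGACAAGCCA
FDXR, chr17:74872996-74873015 (-): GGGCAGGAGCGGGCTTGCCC
GDF15, chr19:18386186-18386207 (+): AGCCATGCCCGGGCAAGAACtc

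The MDM2 and FAS elements had 2 mismatches and the other elements 3. The elements of MDM2, SESN1 and FAS lie in intron 1 of the canonical transcript, starting at -94, -49 and -122 relative to the transcript start of their own window. In FAS the same bases are exonic in other transcripts. The FDXR element starts at -21, outside the canonical transcript, but all 20 of its bases are exonic in other transcripts. The GDF15 element starts 28 bases after the start, in exon 1, with 16 of its 20 bases in coding sequence. No such match was found in the windows of BTG2 and ZMAT3, which says only that these letters are not in the windows searched.

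The BTG2 window is shown because BTG2 is also an immediate early gene, and it held 2 matches to the motif of the EGR factors (GCGNGGGCG, either strand, present in 9.43% of all windows), in capitals here.
BTG2, chr1:203305327-203305396 (+): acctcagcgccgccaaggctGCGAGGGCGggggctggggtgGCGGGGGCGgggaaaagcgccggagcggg

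The 7 members searched had 16 windows between them. The AP-1 motif was present in 7.71% of all windows and 9.37% of all genes, and besides MDM2 in FAS. FAS also had an EGR match (11.2% of genes). GDF15 had a FOXO motif (TGTTTAC, either strand, 3.42% of windows and 4.19% of genes). The CRE motif (TGACGTCA, 1.85% of windows and 2.25% of genes) was in none of the members' windows.

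The libraries held 10158590 to 23909304 counts on genes (median 15811012), and no pair of replicates agreed within sampling noise. The replicates of MET∆14 at 12 h stood farthest apart (chi-square per degree of freedom of 36.1, against 2.85 to 10.4 in the other conditions), and those of wt MET at 0 h came next. In the latter pair, replicate 2 was above replicate 1 for 8 of the 9 genes, with a median difference of 0.26 on the log2 scale. CDKN2A, which A549 is known to have lost, had 0 counts in every library labelled A549 and 86.0 to 157 CPM (reads of a gene relative to the size of its library) in NCI-H596. The squamous markers KRT5, KRT6A, KRT14 and DSG3 together reached 2248 to 3234 CPM with MET∆14 and at most 0.847 CPM with wt MET, where KRT14 was at 0. Of the epithelial markers, summed at 3152 to 4655 CPM (wt MET) and 2147 to 3480 CPM (MET∆14), EPCAM was at most 2.97 CPM in A549. Of 5 markers of other cell types, PTPRC, CD3E and PECAM1 had at most 2, 2 and 37 counts in any library, while COL1A1 was at 10.8 to 19 CPM in wt MET and 15.9 to 33.3 CPM in MET∆14, and CD68 at 34.3 to 41.8 CPM and 108 to 154 CPM. Summed, the 5 reached 46.5 to 59.6 CPM in wt MET and 136 to 186 CPM in MET∆14, and the 3 with enough reads to be tested were all called higher in MET∆14 at 0 h. Their part in the results was not tested.

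The level of every member before HGF separated the lines. At 0 h all 9 genes were lower with MET∆14 (edgeR, quasi-likelihood F test), with p-values of at most 1.8e-08 after Benjamini-Hochberg adjustment, where 39.6% of the 15067 genes were called lower and 80.2% were called in either direction. The median log2 difference of the members was -2.50, beside 0.015 for all genes tested. MDM2 differed most (-3.56 ± 0.11, SE), from a mean of 761 CPM to 64.5 CPM. RRM2B followed at -3.02 ± 0.094 and BTG2 at -2.80 ± 0.091. FAS differed least, at -1.31 ± 0.11, and its mean went from 92.0 CPM in wt MET to 37.2 CPM in MET∆14. Over all times, every MET∆14 library was below every wt MET library for 9 of 9 members, as it was for 30.5% of all genes tested. In bulk RNA, fewer cells that express a gene and less of its RNA per cell cannot be told apart.

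**Figure D1:**
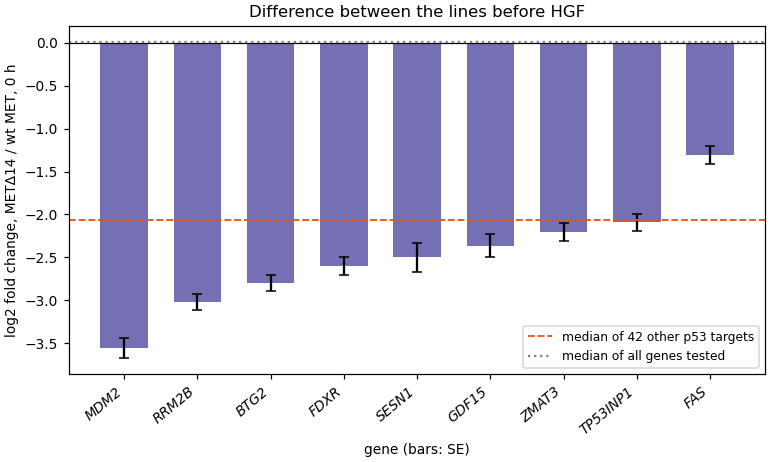
Difference between the lines before HGF for each of the 9 genes (x axis), as the log2 fold change of MET∆14 against wt MET (y axis). Bars with SE run from -1.31 for FAS to -3.56 for MDM2, and the dashed and dotted lines mark the medians of 42 other p53 targets (-2.07) and of all genes tested (0.015).

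MDM2, the ubiquitin ligase that marks p53 for degradation, responded differently in the lines at 3 h. With wt MET its CPM was 676 and 845 at 0 h, 901 and 954 at 3 h, 714 and 716 at 6 h, and 849.9 and 806 at 12 h. With MET∆14 it was 64.1 and 65 at 0 h, 42.2 and 41.9 at 3 h, 50.8 and 56.3 at 6 h, and 65.5 and 57.8 at 12 h. Both wt MET libraries at 3 h were above both at 0 h, while both MET∆14 libraries at 3 h were below both at 0 h, and the 12 h libraries overlapped the 0 h libraries in each line. The MET∆14 change at 3 h was -0.62 ± 0.11 (adjusted p = 0.000549), and the level rose again by 0.56 ± 0.11 between 3 and 12 h (adjusted p = 0.00207). The wt MET difference at 3 h was 0.29 ± 0.10 and did not pass (adjusted p = 0.0669). It passed with DESeq2 (0.0229), without a filter on low counts (0.0246), with at least 10 counts in every library (0.0397) and with the line fitted alone (0.0172), as adjusted p. Leaving out the first or the second of the untreated wt MET replicates moved it to 0.14 (adjusted p = 0.460) or 0.48 (adjusted p = 0.00581). The MET∆14 difference at 6 h, -0.27 ± 0.11, did not pass (adjusted p = 0.0589) but did with DESeq2 (0.0487) and with at least 10 counts in every library (0.0266). The difference between the responses at 3 h was -0.90 ± 0.15 (adjusted p = 0.000706). Of the exonic bases of MDM2, 11.1% overlap genes on the opposite strand and 5.29% a gene on the same strand. The use of strand in the counting is not given in the sources used here, so a part of the MDM2 counts is uncertain.

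BTG2, an antiproliferative regulator of mRNA decay, fell in MET∆14 cells at every time and rose slightly in wt MET cells at 12 h. Its CPM with wt MET was 174 and 191 at 0 h, 210.4 and 208 at 3 h, 194 and 190.5 at 6 h, and 225 and 215 at 12 h. In MET∆14 libraries it was 26.6 and 25.7 at 0 h, 17.3 and 20.1 at 3 h, 12.1 and 13.8 at 6 h, and 19 and 19.6 at 12 h. All 6 MET∆14 libraries with HGF were below both without it, lowest at 6 h. The MET∆14 changes were -0.48 ± 0.097, -1.01 ± 0.099 and -0.44 ± 0.098 at 3, 6 and 12 h (adjusted p = 0.00163, 1.31e-06 and 0.00239). With wt MET the difference passed only at 12 h (0.27 ± 0.082, adjusted p = 0.0185), and it no longer passed without replicate 1 of wt MET at 0 h (adjusted p = 0.143), without replicate 1 at 12 h (0.155), without replicate 2 at 12 h (0.0591) or without a filter on low counts (0.0504). The F test over the 3 times did not call BTG2 in wt MET cells (adjusted p = 0.0524).

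TP53INP1, a stress-induced nuclear protein that promotes p53-dependent apoptosis and autophagy, gave the deepest fall at 3 and 6 h. With MET∆14 its CPM was 34.4 and 32.0 at 0 h, 9.61 and 9.40 at 3 h, 5.84 and 5.78 at 6 h, and 14.4 and 14.9 at 12 h. With wt MET it was 128 and 155 at 0 h, 106 and 110 at 3 h, 99.0 and 101 at 6 h, and 173 and 154 at 12 h. Every HGF-treated MET∆14 library was far below the 0 h libraries, and the replicates lay close together. The MET∆14 log2 changes were -1.80 ± 0.11, -2.51 ± 0.12 and -1.18 ± 0.11 (adjusted p = 3.67e-08, 1.73e-09 and 1.42e-06), so that at 6 h the level was 0.175 of that at 0 h. The wt MET changes were smaller, -0.39 ± 0.092 at 3 h (adjusted p = 0.00845) and -0.50 ± 0.092 at 6 h (adjusted p = 0.000688), with 0.21 ± 0.091 at 12 h, which did not pass (adjusted p = 0.0844). Leaving out the second untreated replicate made the wt MET changes -0.21 and -0.33. The call at 3 h was then lost (adjusted p = 0.151), as it was without either replicate at 3 h (0.105 and 0.0623). At each time the responses of the lines differed, by -1.42 ± 0.15, -2.01 ± 0.15 and -1.39 ± 0.14.

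FAS, the death receptor at the cell surface that starts caspase activation, moved little. In wt MET cells its CPM was 80.2 and 104 at 0 h, 81.3 and 83.7 at 3 h, 75.4 and 79.3 at 6 h, and 112 and 105 at 12 h. In MET∆14 cells it was 37.6 and 36.9 at 0 h, 44.5 and 45.2 at 3 h, 43.3 and 48.8 at 6 h, and 40.4 and 41.9 at 12 h. The wt MET libraries at 3 h lay between the 2 at 0 h, whereas all 6 treated MET∆14 libraries were above both untreated ones. No single time passed against 0 h with wt MET (differences of -0.16, -0.25 and 0.23), but the 12 h libraries were higher than the 3 h libraries (0.39 ± 0.10, adjusted p = 0.0146). With MET∆14 only 6 h passed (0.31 ± 0.11, adjusted p = 0.0286), and not when replicate 1 at 0 h, replicate 2 at 0 h or replicate 2 at 6 h was left out (adjusted p = 0.108, 0.145 and 0.267). The F test over the 3 times called FAS in wt MET cells (adjusted p = 0.00628) and not in MET∆14 cells (adjusted p = 0.0810). The responses differed at 6 h, by 0.56 ± 0.15 (adjusted p = 0.010). Of the exonic bases of FAS, 6.48% overlap genes on the opposite strand, among them ACTA2.

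FDXR, the mitochondrial reductase that supplies electrons to ferredoxin, was lower at 12 h in both lines, and fell at every time with MET∆14. Its CPM with MET∆14 was 25.2 and 23.5 at 0 h, 17.3 and 15.9 at 3 h, 14.1 and 14.2 at 6 h, and 9.52 and 12.7 at 12 h. The wt MET libraries had 143 and 152 at 0 h, 141 and 127 at 3 h, 126 and 126 at 6 h, and 116 and 108 at 12 h. In neither line did a treated library reach the untreated ones. The MET∆14 changes were -0.56 ± 0.11, -0.78 ± 0.11 and -1.16 ± 0.12 (adjusted p = 0.00162, 5.95e-05 and 4.37e-06), and the 12 h level was also below the 3 h level (-0.60 ± 0.13, adjusted p = 0.00288). With wt MET only 12 h passed (-0.39 ± 0.096, adjusted p = 0.00525), and not without replicate 2 of that time (adjusted p = 0.0591). The responses of the lines differed by -0.55 ± 0.15 at 6 h and -0.77 ± 0.15 at 12 h (adjusted p = 0.0111 and 0.00228).

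RRM2B, the p53-inducible small subunit of ribonucleotide reductase that supplies deoxynucleotides for DNA repair, fell in MET∆14 cells and passed at none of the times in wt MET cells. Its CPM in MET∆14 libraries was 44.8 and 42.1 at 0 h, 35.5 and 35.6 at 3 h, 29.9 and 27.3 at 6 h, and 29.8 and 32.2 at 12 h. With wt MET the values were 329.6 and 376 at 0 h, 360.4 and 394 at 3 h, 359 and 363 at 6 h, and 384 and 362 at 12 h. The MET∆14 libraries with HGF were all below those without, and in wt MET cells the libraries of every time overlapped those of 0 h. The MET∆14 changes at 6 and 12 h were -0.61 ± 0.094 and -0.49 ± 0.095 (adjusted p = 0.000102 and 0.000891). That at 3 h was -0.29 ± 0.094 (adjusted p = 0.0283) and did not pass without either replicate at 0 h or either replicate at 3 h (adjusted p from 0.0697 to 0.182), nor with DESeq2 size factors (0.0502), without a filter on low counts (0.0647) or with the line fitted alone (0.120). With wt MET the 95% interval of the mean change over the 3 times was -0.077 to 0.22.

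SESN1, a sestrin that restrains the growth kinase mTORC1, was the 1 member whose response was not called different between the lines (adjusted p = 0.583). Its CPM with wt MET was 32.6 and 39.5 at 0 h, 21.8 and 22 at 3 h, 23.5 and 25.0 at 6 h, and 39.3 and 35.5 at 12 h. With MET∆14 it was 6.78 and 6.01 at 0 h, 3.01 and 5.04 at 3 h, 3.59 and 4.28 at 6 h, and 4.82 and 6.12 at 12 h, from 37 to 121 counts per library. In both lines the libraries at 3 and 6 h were below those at 0 h, and those at 12 h overlapped them. In wt MET cells the changes at 3 and 6 h were -0.72 ± 0.15 and -0.57 ± 0.15 (adjusted p = 0.00402 and 0.00822). In MET∆14 cells they were -0.62 ± 0.21 and -0.67 ± 0.20 (adjusted p = 0.0332 and 0.0140). The difference of the mean responses was -0.099, with a 95% interval of -0.53 to 0.33, which leaves room for a difference in either direction. Without 1 of the libraries at 0 h or at the time itself, each of these 4 calls was lost in at least 1 case (adjusted p up to 0.0554, 0.111, 0.311 and 0.0857). The MET∆14 change at 3 h was -0.33 without replicate 1 of that time and -1.08 without replicate 2, and with the line fitted alone neither MET∆14 call held (adjusted p = 0.122 and 0.0654).

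ZMAT3, a zinc finger protein that binds RNA and regulates splicing, rose with MET∆14 and fell before it rose with wt MET. Its CPM with MET∆14 was 24.2 and 25.1 at 0 h, 31.9 and 28.6 at 3 h, 35.2 and 32.2 at 6 h, and 36.6 and 33.3 at 12 h. The wt MET libraries had 103 and 124 at 0 h, 93.6 and 95.9 at 3 h, 91.5 and 91.1 at 6 h, and 167 and 148 at 12 h. All treated MET∆14 libraries were above the untreated ones, and the wt MET libraries lay below 0 h at 3 and 6 h and above it at 12 h. The MET∆14 change was 0.45 ± 0.11 at 6 h and 0.51 ± 0.11 at 12 h (adjusted p = 0.00334 and 0.00180), and 0.29 ± 0.11 at 3 h, which did not pass (adjusted p = 0.0523). With wt MET it was -0.31 ± 0.097 at 6 h (adjusted p = 0.0216) and 0.48 ± 0.096 at 12 h (adjusted p = 0.00144). The call at 6 h did not hold without replicate 2 of wt MET at 0 h (-0.15, adjusted p = 0.315) or without either replicate at 6 h (0.123 and 0.128). The responses differed by 0.55 ± 0.15 at 3 h and 0.76 ± 0.15 at 6 h, and at 12 h by 0.030, with a 95% interval of -0.28 to 0.34.

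GDF15, a secreted cytokine of the TGF-β superfamily, rose in both lines at 3 h and then diverged. With wt MET its CPM was 240.1 and 228 at 0 h, 465 and 428 at 3 h, 358 and 349 at 6 h, and 233 and 239 at 12 h. With MET∆14 it was 45.0 and 45.8 at 0 h, 99.8 and 88.5 at 3 h, 48.4 and 56.0 at 6 h, and 8.76 and 14.3 at 12 h. The wt MET libraries at 12 h were back among those of 0 h, whereas both MET∆14 libraries at 12 h were below every other library. At 3 h the rise was 0.93 ± 0.13 in wt MET cells (adjusted p = 0.000122) and 1.05 ± 0.13 in MET∆14 cells (adjusted p = 2.55e-05). These rises differed by 0.12, with a 95% interval of -0.27 to 0.51. At 12 h the MET∆14 change was -2.03 ± 0.16 (adjusted p = 2.83e-07) and that of wt MET was 0.010 ± 0.13 (adjusted p = 0.976), a difference of -2.04 ± 0.20 (adjusted p = 8.08e-06). The 2 MET∆14 replicates at 12 h were those that stood farthest apart, and the change stayed between -2.38 and -1.67, and called, when any single library was left out.

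**Figure D2:**
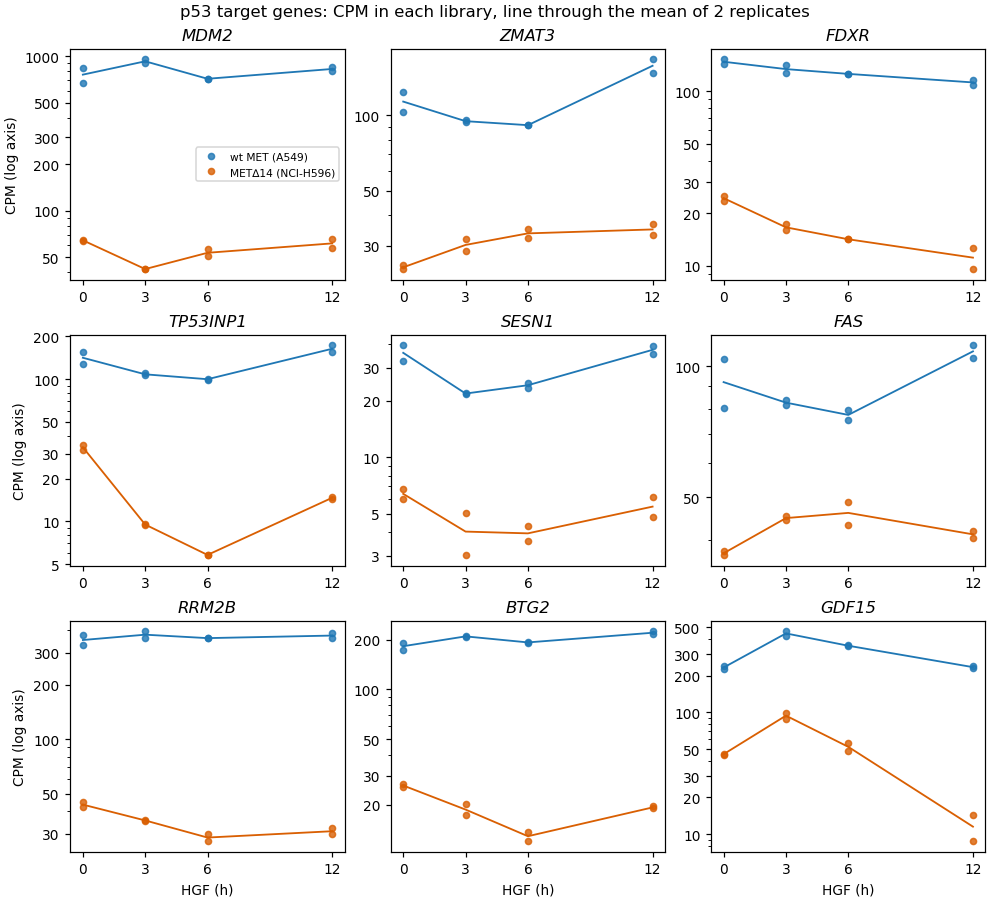
CPM (log axis, scaled for each gene) against hours of HGF for the 9 genes, with 1 point per library and a line through the mean of 2 replicates. The wt MET points (A549) lie above the MET∆14 points (NCI-H596) in each of the 9 panels, TP53INP1 drops to 5.78 and 5.84 CPM at 6 h with MET∆14, and GDF15 peaks at 3 h in both lines.

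Counted together, more members were called with MET∆14 than with wt MET. At 3, 6 and 12 h the MET∆14 calls numbered 7, 7 and 6 of 9, against 31.7%, 44.1% and 38.3% of all genes tested, and 6, 5 and 5 of them were lower than at 0 h (16.1%, 22.5% and 20.1% of all genes). The wt MET calls numbered 3, 4 and 3, against 17.4%, 34.2% and 35.1% of all genes, and 2, 3 and 1 of them were lower (7.16%, 17.8% and 18.2% of all genes). The F test over the 3 times called 8 members in MET∆14 cells (54.1% of all genes) and 7 in wt MET cells (40.3%). The median change of the members with MET∆14 was -0.48, -0.61 and -0.44 at the 3 times, beside -0.053, -0.039 and -0.024 for all genes. With wt MET it was -0.14, -0.23 and 0.12, beside -0.044, -0.053 and -0.0019. Between 3 and 12 h, ZMAT3, TP53INP1, SESN1 and FAS rose with wt MET and GDF15 fell (5 of 9, against 19.9% of all genes, 8.83% higher and 11.1% lower), while with MET∆14 MDM2 and TP53INP1 rose and FDXR and GDF15 fell (4 of 9, against 27.9%, 13.3% higher and 14.6% lower). The times of each line share their 0 h libraries.

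The wt MET counts depended on single libraries. Leaving out replicate 2 of wt MET at 0 h gave 2 calls at 6 h and 6 at 12 h, where 28.3% and 28.2% of all genes tested were then called. Leaving out replicate 1 of that condition gave 5 calls at 3 h (9.9% of all genes). Leaving out replicate 1 of 3 h gave 1 call at 3 h (10.3%), leaving out replicate 1 of 6 h gave 2 at 6 h (21.7%), and leaving out replicate 2 of 12 h gave 1 at 12 h (24.2%). Leaving out replicate 1 or replicate 2 of MET∆14 at 12 h, whose spread enters the shared estimate, gave 6 wt MET calls at 3 h (26.9% and 26.3% of all genes) and 5 at 12 h (44.6% and 44.2%).

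**Figure D3:**
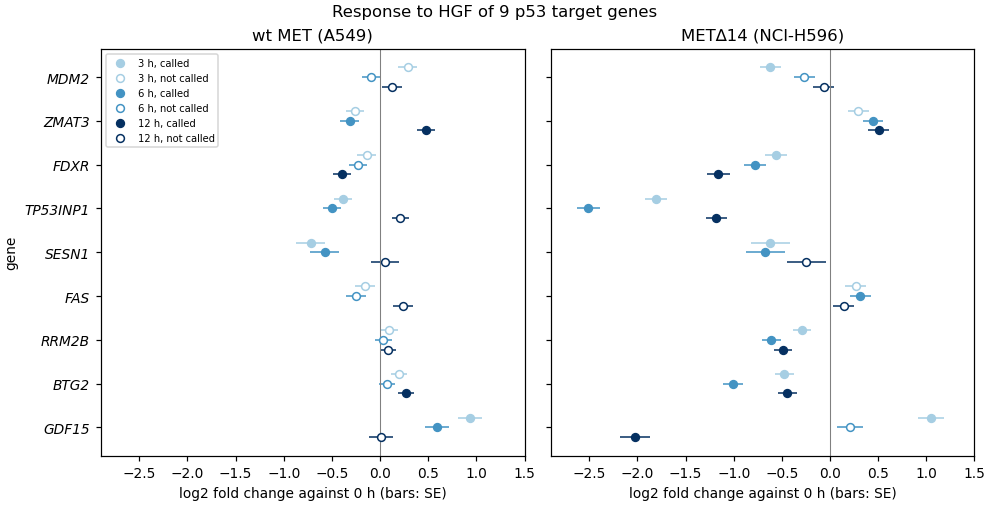
Log2 fold change against 0 h of the same line (x axis, bars are SE) for each gene at 3, 6 and 12 h, with filled points for changes called at an adjusted p under 0.05. Most filled points of MET∆14 lie left of 0, down to -2.51 for TP53INP1 at 6 h, and those of wt MET lie between -0.72 and 0.93.

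The difference of the responses itself was called for 8 of the 9 members in the F test over 3 times (37.6% of all genes). At 3, 6 and 12 h it was called for 5, 6 and 5 members, against 17.4%, 30.2% and 24% of all genes. MDM2, TP53INP1, RRM2B and BTG2 differed at 3 h with a lower response in MET∆14 (8.47% of all genes), and ZMAT3 with a higher one (8.93%). The ratio of the wt MET mean to the MET∆14 mean shows how the gap moved. For TP53INP1 it widened from 4.26 at 0 h to 17.2 at 6 h, and for GDF15 from 5.16 at 0 h to 20.5 at 12 h. The MDM2 ratio was 11.8 at 0 h, 22.1 at 3 h and 13.4 at 12 h. Those of FAS (2.47 at 0 h, 1.68 at 6 h) and ZMAT3 (4.61 and 2.71) narrowed at 6 h. Fitted in edgeR with a time effect shared by both lines, 5 members were called (30.6% of all genes): ZMAT3, FDXR, TP53INP1, SESN1 and GDF15. The formula of the study also has terms for line and time. It was fitted there with DESeq2, and the transcriptomes of the study included cells with amplified wt MET.

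Levels were compared between genes as CPM per kilobase of the canonical transcript. With wt MET at 0 h the order was GDF15 (195 per kilobase), MDM2 (102), FDXR (80.1), RRM2B (73.9), BTG2 (66.8), TP53INP1 (25.2), FAS (24.9), ZMAT3 (12.7) and SESN1 (6.36). FDXR and RRM2B, RRM2B and BTG2, and TP53INP1 and FAS did not differ beyond the sum of their SDs. With MET∆14 at 0 h GDF15 was again first (37.8), followed by FDXR (13.2), FAS (10.1), BTG2 (9.59), RRM2B (9.11), MDM2 (8.61), TP53INP1 (5.92), ZMAT3 (2.76) and SESN1 (1.13), and there only BTG2 and RRM2B lay within the sum of their SDs. MDM2 was second in all 4 wt MET conditions and between rank 3 and rank 6 with MET∆14. SESN1 was lowest in all 8 conditions and GDF15 highest in 7. At 12 h with MET∆14 FAS came first (11.1) and GDF15 second (9.60), a gap smaller than the spread of GDF15.

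The genes did not move as 1 group across the libraries of a line. Over the 8 libraries of wt MET, TP53INP1, ZMAT3, FAS and SESN1 moved together, with Pearson's r of log2 CPM of 0.953 for TP53INP1 and ZMAT3, 0.948 for TP53INP1 and FAS, and 0.937 for TP53INP1 and SESN1. GDF15 moved against them, with -0.969 for SESN1 and GDF15. Over the 8 MET∆14 libraries TP53INP1 moved with BTG2 (0.941), FDXR with RRM2B (0.865) and RRM2B with BTG2 (0.856), while ZMAT3 moved against FDXR (-0.928) and FAS against TP53INP1 (-0.918). Of the 36 pairs, 23 were positive with wt MET and 19 with MET∆14. These values describe libraries that share times and replicates, and no test was made.

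**Figure D4:**
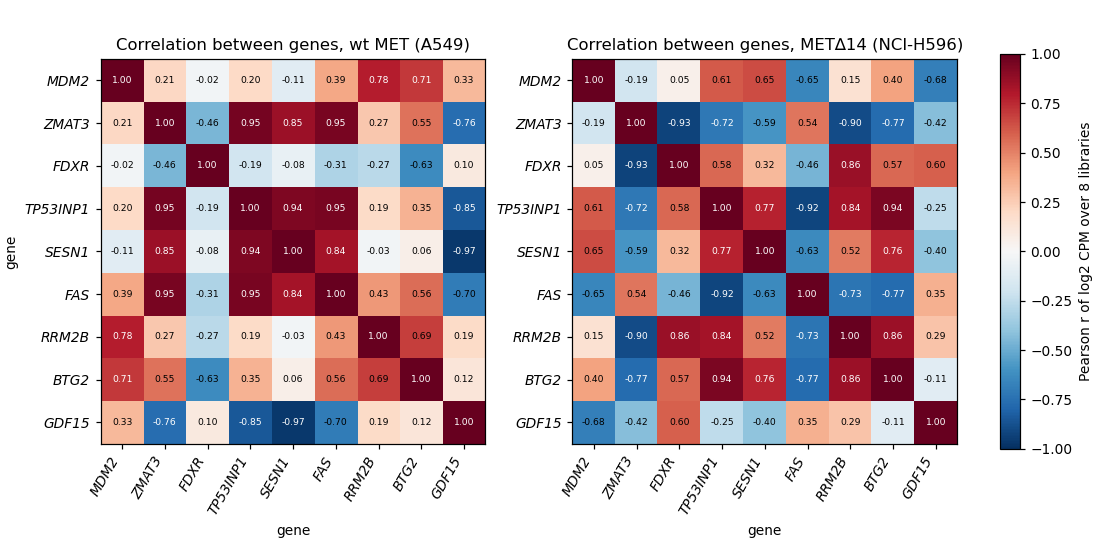
Pearson's r of log2 CPM between each pair of the 9 genes over the 8 libraries of wt MET (left) and of MET∆14 (right), with red for positive and blue for negative values. TP53INP1 and FAS have r of 0.948 on the left and -0.918 on the right.

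The genes whose pattern was most like that of MDM2, BTG2 and GDF15 were sought over 16 libraries, after the mean of each line was removed, among the 8570 genes whose mean log2 CPM reached 3 in both lines. EED, a subunit of the Polycomb repressive complex, was nearest to MDM2 (r = 0.911), followed by WSB1 (0.829) and SLX4 (0.827). For BTG2 these were STAG2 (0.919), PJA2 (0.914) and NBR1 (0.912). GDF15 was followed most closely by the autophagy receptor SQSTM1 (0.970), the MAP kinase phosphatase DUSP1 (0.967) and the carboxylesterase CES2 (0.955).

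A list of 42 other p53 targets, all of them tested, was lower with MET∆14 before HGF as well. Of the 42, 41 were called at 0 h, 36 lower and 5 higher, with a median log2 difference of -2.07. Of all 15067 genes tested, 80.2% were called at 0 h and 39.6% were called lower. EDA2R, a receptor of the TNF receptor family, had 98.6 CPM in wt MET and 0 counts in both MET∆14 libraries at 0 h, and against a floor of 3 counts per library it was at least 572-fold lower, a bound that leaves the median of the list as it is. The actin regulator CYFIP2 had 151 CPM against 0.469 CPM, and AEN, an exonuclease of apoptosis, 831 ± 131 CPM against 27.2 ± 0.78 CPM (SD, n = 2). The largest differences in the other direction were those of SFN, a cell cycle inhibitor, at 75.4 CPM in wt MET and 706 CPM in MET∆14, and of KITLG, the KIT ligand, at 30 and 249 CPM. EPS8L2 differed by 0.54, from 94.1 to 136 CPM. Nearly all reads of EDA2R and CYFIP2 were in wt MET.

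With MET∆14, 22, 27 and 28 of these 42 genes were called at 3, 6 and 12 h, with 11, 18 and 19 of them lower, where 31.7%, 44.1% and 38.3% of all genes were called and 16.1%, 22.5% and 20.1% were lower. The median changes were -0.064, -0.29 and -0.30. CYFIP2 is counted among those lower at 12 h, at 0.0821 CPM against 0.469 CPM at 0 h, both near the floor. The largest falls of the mean response were those of the lipid hydrolase ABHD4 (-0.43, -0.97 and -1.34 at the 3 times), of DDB2, which recognises ultraviolet damage in DNA (-0.67, -1.13 and -0.87), and of ANKRA2 (-0.66, -1.06 and -0.94). AEN rose most (1.49, 1.67 and 0.89), with the death receptor TNFRSF10A (1.56, 1.58 and 0.87) and TIGAR, a regulator of glycolysis (0.89, 1.09 and 0.63), and the exons of the last pair overlap other annotated genes by 16.7% and 18.1%.

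With wt MET 9, 14 and 15 of the 42 were called, close to the share of all genes at each time (17.4%, 34.2% and 35.1%), and 4, 6 and 2 of them were lower (7.16%, 17.8% and 18.2% of all genes), and the median changes were 0.022, -0.070 and 0.079. SERTAD1, a transcriptional coregulator, rose most (1.80, 1.41 and 0.45), with ZNF79 (0.89, 0.73 and 0.62) and AEN (0.59, 0.53 and 0.33). EPS8L2 (-0.44, -0.86 and -0.70) and the cyclin CCNG1 (-0.44, -0.77 and -0.35) fell at each time, and the apoptosome protein APAF1 fell at 3 and 6 h (-0.44 and -0.54). CCNG1 and EPS8L2 fell alike in the other line, and their responses were not called different between the lines (adjusted p = 0.962 and 0.874). Over the whole list the difference of the responses was called for 26 of 42 genes, against 37.6% of all genes. Of the 26, 19 had a lower mean response in MET∆14, CYFIP2 with its few reads there among them. The median difference of the mean response was -0.21 for the list, beside 0.024 for all genes. The share of all genes by direction is not given for this test.

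Of 20 regulators and relatives of p53, the F test over the 3 times called 14 in wt MET cells (13 with a mean rise) and 15 in MET∆14 cells (6 with a mean rise), and the difference of the responses was called for 10. Of all genes, 40.3%, 54.1% and 37.6% were called in these tests, and their shares by direction are not given. The median of the mean response was 0.36 with wt MET and -0.17 with MET∆14 for the list. It was -0.047 and -0.052 for all genes. The genes named from this list and the next were chosen after their values were seen. PPM1D, the phosphatase that dephosphorylates p53, rose with wt MET by 0.49, 0.37 and 0.44. With MET∆14 its level was lower at 3 and 6 h than at 0 h (-0.33 and -0.34), and its response was called different between the lines (adjusted p = 0.00155). At 0 h it was at 140 ± 14 CPM in wt MET and 14.9 ± 0.59 CPM in MET∆14 (SD, n = 2). At 3, 6 and 12 h PPM1D was at 11.8 ± 0.92, 11.6 ± 1.4 and 14.0 ± 0.067 CPM in MET∆14. MDM4, the partner of MDM2 in holding p53 in check, passed at no time in either line. The p53 homologues TP63 and TP73 were at 163 ± 2.0 and 129 ± 5.6 CPM in MET∆14 at 0 h and at 0.643 ± 0.091 and 0.108 ± 0.052 CPM in wt MET, where they had at most 38 and 2 counts in a library. TP73 fell with MET∆14 by 2.46, 2.89 and 1.36 on the log2 scale (adjusted p = 3.96e-08, 5.51e-09 and 6.6e-06), and TP63 by 0.50, 0.71 and 0.62.

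Since GDF15 and SESN1 are known to respond to other stress and growth pathways too, 2 further lists were read. Of 11 genes of the integrated stress response, 10 were lower with MET∆14 at 0 h (39.6% of all genes). At 12 h, 9 fell with MET∆14 (20.1% of all genes) and none rose, and with wt MET 4 rose and 1 fell (35.1% of all genes called). At 3 h with wt MET, 3 of the 11 rose and 3 fell (17.4% of all genes called), with a median of 0.059. CHAC1 then went from 20.5 ± 4.3 CPM at 0 h to 7.74 ± 1.8 CPM (SD, n = 2). The transcription factor DDIT3 rose with wt MET at 3 h by 1.21 and fell with MET∆14 at 12 h (-1.65). ATF3 rose with wt MET at 3 h by 1.59 and fell with MET∆14 at 12 h (-1.53). With MET∆14 at 3 h, ATF3 was at 68.2 ± 16 CPM, against 48.3 ± 4.7 CPM at 0 h (SD, n = 2). DDIT3 was then at 33.3 ± 7.6 CPM, against 42.7 ± 6.7 CPM. With wt MET at 12 h, ATF3 was at 245 ± 19 CPM, against 188 ± 49 CPM at 0 h. DDIT3 was then at 337 ± 1.1 CPM, against 226 ± 31 CPM. Of 11 genes of FOXO output tested, 10 fell and 1 rose with MET∆14 at 6 h (44.1% of all genes called, 22.5% lower). The median was -1.41, and FBXO32 (-3.55) and PIK3IP1 (-4.05) were among those that fell. With wt MET at 6 h 5 fell and 2 rose (34.2% of all genes called), with a median of -0.26. Some of these genes were near the floor in 1 line. PDK4 was at 0.452 CPM in MET∆14 at 0 h, and PIK3IP1 and SESN3 had at most 48 and 41 counts in a wt MET library. The response differed between the lines for 10 of 11 genes in each of these lists (37.6% of all genes). SESN2 stands in both the stress list and the list of other p53 targets.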

How the data were processed

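The 16 libraries came from A549 (wt MET) and NCI-H596 (MET∆14) cells without HGF (0 h) or with HGF during 3, 6 and 12 h, with 2 biological replicates for each time and line. Polyadenylated RNA libraries were mapped to hg38. The authors deposited whole-number read counts per gene, not normalized, and the submitters' processing notes name STAR 2.5.0 and RSEM 1.3.2 without their roles, so the counts may be rounded estimates. The use of strand is not given in the sources used here. The wt MET line is A549 in the labels, while the methods name another wt MET line and do not say which was sequenced. Columns of the table were matched to samples by name, and 0 columns were left without one.

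edgeR 4.0.16 under R 4.3.3 was used on the counts (filterByExpr with a minimum count of 10 and a minimum total of 15, TMM, robust quasi-likelihood fit over 16 libraries with 1 coefficient per condition). The Benjamini-Hochberg adjustment ran over all 15067 genes tested, with a threshold of 0.05, and errors of log2 fold changes are SE. CPM used TMM-scaled library sizes (log2 CPM, prior count 2), and CPM per kilobase the canonical GENCODE transcript on GRCh38. Floors of 3 counts cover counting error only. Scripts were tested on simulated data. The alternatives were DESeq2 1.42.0, DESeq2 size factors, no filter on low counts, at least 10 counts in every library, a fit per line, a block for the replicate number, and each library left out in turn. The members and lists were chosen with earlier results of these data known. From the 42 other targets the text names, per line, the 3 largest mean rises and the 3 largest mean falls over the 3 times, from genes that the F test called and whose mean log2 CPM was 3 or more, and the 3 largest differences in each direction at 0 h. The gene of p53 itself was not analysed here.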

Additional observations from a re-analysis of the deposited data

Results flagged for a closer look

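The response to HGF differed between MET∆14 and wt MET for 8 of the 9 genes in the F test over 3 times (edgeR, adjusted over all genes tested, of which 37.6% were called). The adjusted p was 9.37e-07 for TP53INP1, 5.47e-06 for GDF15, 9.63e-05 for BTG2, 0.00106 for MDM2, 0.00113 for ZMAT3, 0.00362 for RRM2B, 0.00601 for FAS and 0.00608 for FDXR. The mean response was lower with MET∆14 for TP53INP1, GDF15, BTG2, MDM2, RRM2B and FDXR, and higher for ZMAT3 and FAS. With 1 cell line for each MET status, the receptor and the line cannot be told apart.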

How the results depend on the processing

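The 13 counts of members called were recomputed under the alternatives, which gave 283 recomputed counts in all, and 270 of these stayed within 1.5 times their main value. The counts for MET∆14 at each time, for the difference of the responses (8 of 9) and for 0 h (9 of 9) were among them under every alternative. Within that limit the MET∆14 counts were not fixed. Those at 3 h, at 6 h and over the 3 times moved in both directions when single libraries were left out, and that at 12 h did not. With each line fitted alone, wt MET gave 5 calls at 3 h and 5 at 12 h, against 3 and 3, while the share of all genes called went to 27.3% and 48.4%. When each library was left out in turn, the wt MET counts ranged from 1 to 6 at 3 h, from 2 to 6 at 6 h, from 1 to 6 at 12 h and from 4 (replicate 1 at 12 h left out) to 8 over the 3 times. The cause of these shifts was not tested. The same replicate number did not mark paired samples (correlations of the deviations of -0.053 to 0.034 within wt MET and -0.16 to 0.035 within MET∆14), and with the replicate number as a block the counts were 3, 4 and 3 for wt MET and 7, 7 and 6 for MET∆14, as without it.

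Of 1377 values recomputed for single members, 1287 kept their side of the threshold and their sign, 32 lost a call, 48 gained one, and 10 changed sign, none of the last past the threshold with all libraries. Leaving out 1 library accounted for 26 of the lost and 34 of the gained calls. The other 6 lost calls were RRM2B with MET∆14 at 3 h under 3 settings, SESN1 with MET∆14 at 3 and 6 h with the line fitted alone, and BTG2 with wt MET at 12 h without a filter. All changes of sign came from leaving out 1 library. With wt MET, the ranges over the libraries left out were -0.33 to 0.069 for FAS at 3 h, -0.24 to 0.11 (MDM2) and -0.056 to 0.16 (RRM2B) at 6 h, and -0.028 to 0.29 (MDM2), -0.0083 to 0.18 (RRM2B), -0.077 to 0.20 (SESN1) and -0.029 to 0.050 (GDF15) at 12 h. The sign turned when 1 of the 0 h replicates was left out, and for SESN1 (-0.031) and GDF15 (-0.012) also when 1 of the 12 h replicates was. With MET∆14 it turned for MDM2 at 12 h when replicate 2 of that time was left out (range -0.16 to 0.0086). Low counts limit SESN1 with MET∆14, with as few as 37 counts in a library. Of the exonic bases of SESN1 and TP53INP1, 4.99% and 3.99% overlap genes on the opposite strand, and the effect on their counts was not tested.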
